A study of Saccharomyces cerevisiae with 12 samples.

Results

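Trehalose and glycogen are the carbohydrate stores of budding yeast (Saccharomyces cerevisiae), and the 10 genes described here encode the enzymes that make them, their regulatory subunits and the phosphorylase that breaks glycogen down. They were chosen by name among the 6465 gene intervals of the series and not by a cutoff on measured values, though earlier results of these data were known. TPS1 (YBR126C), TPS2 (YDR074W), TPS3 (YMR261C) and TSL1 (YML100W) encode the trehalose synthase complex. GSY1 (YFR015C), GSY2 (YLR258W) and GLC3 (YEL011W) build glycogen, and GPH1 (YPR160W) degrades it. PGM2 (YMR105C) and UGP1 (YKL035W) make UDP-glucose, the sugar donor of both pathways.

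The study measured new transcription after loss of the yeast BET proteins, the bromodomain factors Bdf1 and Bdf2, by SLAM-seq. In this assay 4-thiouracil (4tU) enters new RNA and is read as T>C conversions, so that T>C reads (at least 2 conversions) count new RNA and all reads count total RNA. Both strains carried pGPD1-OsTIR1:HIS3, the auxin receptor, together with BDF2-3xV5-mAID::KanMX and BDF1-3xV5-mAID::URA3, which place an auxin degron on each BET protein. The ET strain (RDY388) also carried pJR15:TRP1, from which the extra-terminal (ET) domain of Bdf1 is expressed in excess under the GPM1 promoter with a nuclear localization signal, and the control strain (RDY73) lacked it. Cultures received 1 mM 3-indoleacetic acid (IAA) or DMSO, the solvent, for 25 min and then 5 mM 4tU for 4 min. The 12 libraries thus form 4 groups of 3 replicates, named A, B and C, which are ET strain with IAA, ET strain with DMSO, control strain with IAA and control strain with DMSO. Each group is thus limited to 1 strain, and cells of fission yeast (Schizosaccharomyces pombe) were added as a spike-in.

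Trehalose is made in a pair of steps. Tps1 joins glucose 6-phosphate and UDP-glucose, Tps2 removes the phosphate, and Tps3 and Tsl1 are the large regulatory subunits of the complex. Glycogen is extended by glycogen synthase (Gsy1 and Gsy2), branched by Glc3 and shortened by glycogen phosphorylase (Gph1). Both stores are known to accumulate in stressed or slowly growing cells, and many of these genes are known to respond to the zinc finger activators Msn2 and Msn4, which bind the stress response element (STRE, core AGGGG) and are held back by protein kinase A during growth on glucose.

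The upstream sequences of the genes share the STRE core, a feature that the choice of genes did not use. Within 600 bases before the ORF, AGGGG on either strand (AGGGG or CCCCT) occurred at least 2 times in all 10 genes, against 10.7% of 5999 protein-coding genes and 11.3% of the 3519 tested genes with such a window. At least 3 matches were found in 7 of the 10, against 2.43% of protein-coding genes. TATAAA on either strand was found in 9 of the 10, against 65.2%, and TPS2 had none. A match is only a match of letters and was not tested as a binding site. The genes with the highest and lowest change in all reads after IAA (TSL1 and PGM2, and TPS3) are shown from 400 to 151 bases before the ORF, 5′ to 3′ on the strand of the gene, with AGGGG and CCCCT in capitals (R64 build, RefSeq). These windows are chrXIII:70224-70473 on the plus strand for TSL1, chrXIII:477757-478006 on the minus strand for PGM2 and chrXIII:793520-793769 on the minus strand for TPS3.
TSL1: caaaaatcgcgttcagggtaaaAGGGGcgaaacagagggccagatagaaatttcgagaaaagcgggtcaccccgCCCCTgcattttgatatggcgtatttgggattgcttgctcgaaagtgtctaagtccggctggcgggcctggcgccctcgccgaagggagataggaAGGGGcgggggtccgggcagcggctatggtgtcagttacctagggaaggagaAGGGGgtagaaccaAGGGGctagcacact
PGM2: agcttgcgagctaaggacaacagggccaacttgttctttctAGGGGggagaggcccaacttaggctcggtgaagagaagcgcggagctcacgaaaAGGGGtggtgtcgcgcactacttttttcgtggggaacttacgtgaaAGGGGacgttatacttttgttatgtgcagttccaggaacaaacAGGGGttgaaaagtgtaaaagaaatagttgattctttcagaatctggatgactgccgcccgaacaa
TPS3: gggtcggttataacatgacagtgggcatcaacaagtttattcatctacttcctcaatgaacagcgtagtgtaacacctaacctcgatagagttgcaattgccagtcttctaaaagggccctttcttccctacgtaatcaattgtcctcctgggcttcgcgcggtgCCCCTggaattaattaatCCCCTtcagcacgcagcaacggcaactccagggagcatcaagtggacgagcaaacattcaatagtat
The TSL1 window held 5 matches, which only 0.05% of 6001 protein-coding genes had, the PGM2 window held 4 (0.117% had that many or more) and the TPS3 window held 2 (3.07%). Over the same distance TPS1 had 5 matches, GLC3 had 3, GSY2, GPH1 and UGP1 had 2 each, and TPS2 and GSY1 had 1 each. The genes called higher in all reads below thus had 1 to 5 matches, and TPS3 had as many as 3 of them. In TSL1 the matches began 378, 326, 231, 179 and 165 bases before the ORF. In TPS3 they began at 235 and 217 bases and both read CCCCT on the strand shown. The map of matches shows the positions in all 10 genes.

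**Figure D1:**
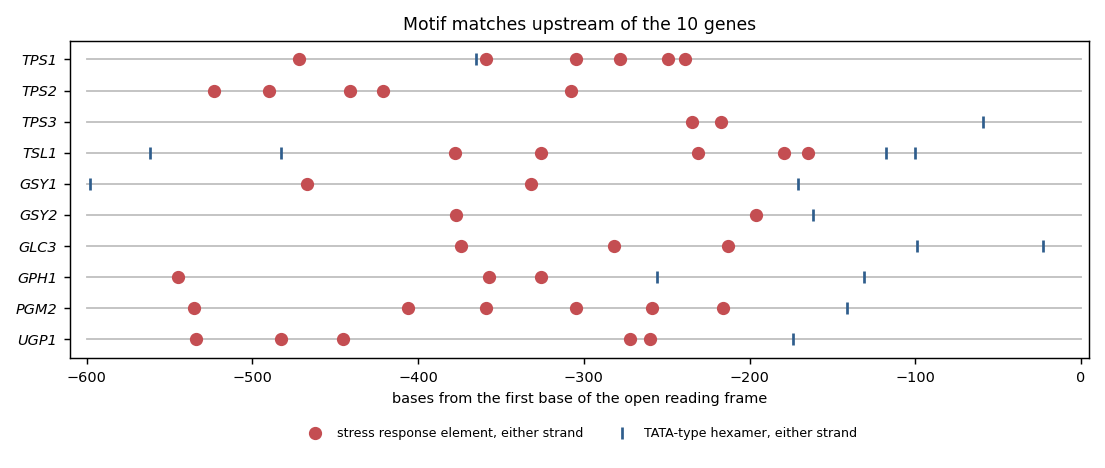
Positions of AGGGG (either strand) and TATAAA (either strand) in the 600 bases before the ORF of each of the 10 genes, with distance from the ORF start in bases on the x axis. Every gene has at least 2 AGGGG matches, PGM2 and TPS1 have 6 each, and TPS3, GSY1 and GSY2 have 2.

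The libraries held 6279282 to 11395597 S. cerevisiae reads, of which 90321 to 330857 were T>C reads, and 445036 to 722822 S. pombe reads. The labelled share of S. cerevisiae reads spanned 1.29% to 3.42%. Values below are RPM, that is, reads per 1000000 S. cerevisiae reads of the library. As most genes fell after IAA, a share of the library can rise while the RNA per cell does not. The main counts of genes called after IAA are therefore also given per S. pombe read and with median-of-ratios factors, which centre on the middle gene. Changes of single genes are scaled by all S. cerevisiae reads unless stated, so a rise there is a rise in share. Of the 10 genes, 8 had a T>C read in every library and were among the 3677 genes tested. TPS3 had no T>C read in replicate B of either IAA group. GSY1 had none in control DMSO replicate A and ET DMSO replicate B. Both were tested in wider sets of genes. The filter thus left out TPS3 through libraries with IAA, where it was low, and counts over the 8 genes do not hold it. T>C reads of the 10 genes numbered 0 to 54 per library. BDF1 reads cannot check the depletion, which acts on protein.

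After IAA, most of the 10 genes kept or gained their share of the library's RNA while most other genes lost theirs. In such cultures, fewer expressing cells and less RNA per cell cannot be told apart. In all reads, 7 of the 8 tested genes were higher after IAA in the ET strain and 7 of 8 in the control strain, the same genes in both (all but GLC3), at an edgeR adjusted p under 0.05. Among all 3677 genes 8.87% were called higher in the ET strain and 8.97% in the control strain, while 70.9% and 72.3% were called lower. The 8 genes had a median log2 change of 0.30 in the ET strain and 0.48 in the control strain, where the median of all genes was −0.79 and −0.96. TPS3 went the other way: its level after IAA was 0.494 times that with DMSO in the ET strain and 0.476 times in the control strain.

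The size of the rise depended on the scaling. Per S. pombe read none of the 8 was called higher in the ET strain (1 at an unadjusted p under 0.05; 7 genes at positive values up to 0.35; background 1.01%), and TSL1 and PGM2 alone were called higher in the control strain (background 2.2%). The all-read calls of TPS1, TPS2, GSY2, GPH1 and UGP1 given below thus held in neither strain on that scale. With median-of-ratios factors all 8 were called higher in both strains, as were 44.8% of all genes in the ET strain and 47.8% in the control strain. A change of scaling shifts all genes of a library alike, so the distance to the median of all genes could hardly move. The 8 genes stood 0.77 to 1.39 log2 units above it in the ET strain and 1.13 to 1.77 above it in the control strain, and per S. pombe read the distances were 0.79 to 1.38 and 1.13 to 1.76.

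In T>C reads few single genes passed the test. TSL1 was called higher and GLC3 lower in the ET strain, and PGM2 was called higher in the control strain, with none called lower there. Of all 3677 genes 0.789% were called higher and 79.6% lower in the ET strain, and 0.952% higher and 79.7% lower in the control strain. The median log2 change of the 8 genes was 0.27 in the ET strain, against −1.40 over all genes, and −0.02 in the control strain, against −1.61. All 8 lay above the median of all genes in both strains, by 0.25 to 2.30 in the ET strain and by 1.41 to 2.78 in the control strain, where they fell between percentiles 91.3 and 99.6. TPS3, which the filter left out, lay 0.95 below the median of the unfiltered genes in the ET strain. With median-of-ratios factors, 5 of the 8 were called higher in the ET strain (background 12.1%) and 6 in the control strain (background 14.3%). Per S. pombe read none was called higher in the ET strain (TSL1 at 0.66, adjusted p = 0.094) and TPS2 and GLC3 were called lower (background 83.8%), while PGM2 remained higher in the control strain.

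**Figure D2:**
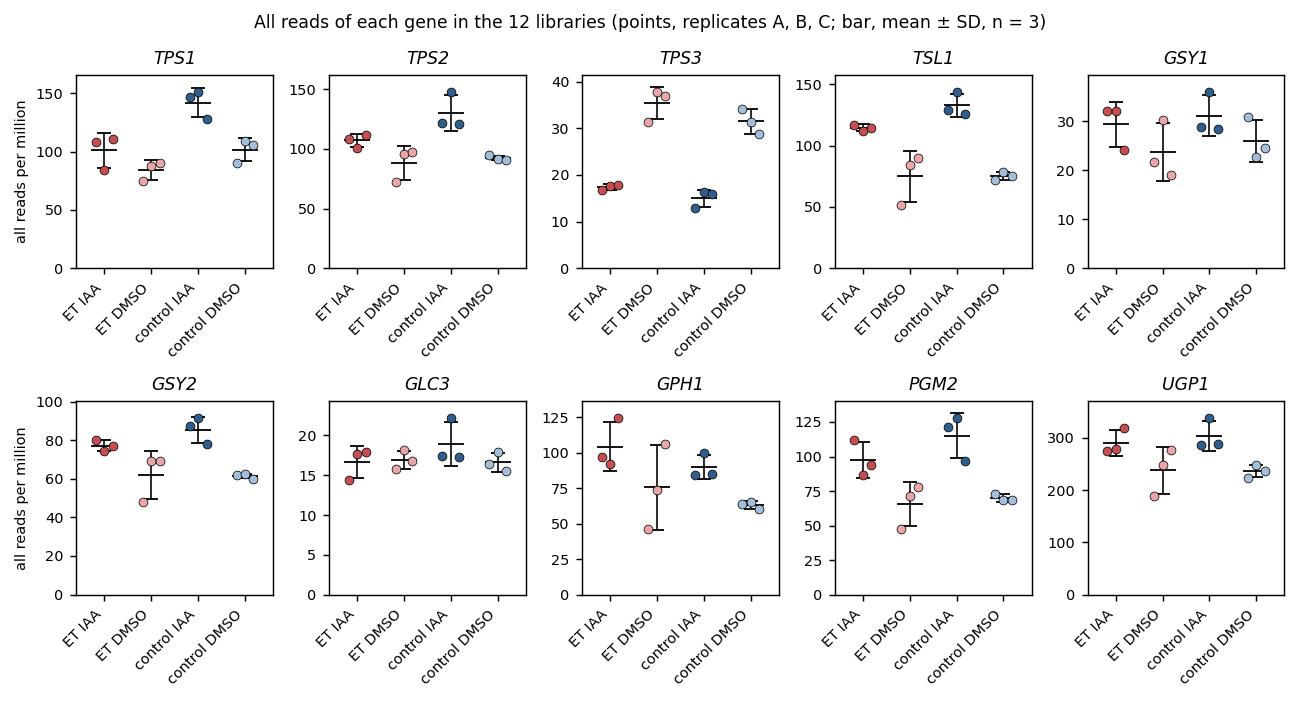
All reads of each gene, in RPM, in the 12 libraries, with 1 panel per gene; points are replicates A, B and C and bars are the mean ± SD of 3. For 7 genes the IAA libraries of the control strain lie above its DMSO libraries, TPS3 lies below in both strains, and ET DMSO replicate A is the lowest of the 12 libraries for 7 genes.

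Among the genes of the trehalose synthase complex, TSL1 rose the most. All reads gave 117, 111 and 115 RPM in ET strain libraries with IAA, against 51.3, 84.3 and 89.8 with DMSO. Control strain libraries gave 129, 143 and 126 with IAA, against 72.1, 78.7 and 75.5 with DMSO. IAA and DMSO libraries did not overlap in either strain, and the lowest value was ET DMSO replicate A. The log2 change was 0.60 ± 0.14 in the ET strain (SE; edgeR adjusted p = 0.00041) and 0.81 ± 0.14 in the control strain (adjusted p = 1.4e-05), or 1.52-fold and 1.76-fold. Per S. pombe read it was 0.35 (adjusted p = 0.053) in the ET strain and 0.63 (adjusted p = 0.00033) in the control strain.

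New RNA of TSL1 was also higher in the ET strain after IAA. Its T>C reads numbered 20, 30 and 42 in ET strain libraries with IAA, against 8, 18 and 26 with DMSO, and 21, 14 and 31 in control strain libraries with IAA, against 12, 28 and 17 with DMSO. Scaled to library size these groups overlapped in both strains, with 3.15 ± 0.840 RPM after IAA and 1.70 ± 0.954 with DMSO in the ET strain (SD, n = 3 each). The log2 change was 0.90 ± 0.33 (adjusted p = 0.0082) in the ET strain, a call lost without ET DMSO replicate A or ET IAA replicate C, and 0.50 ± 0.34 (adjusted p = 0.16) in the control strain.

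TPS3, the paralogue of TSL1 as a regulatory subunit, was lower after IAA in both strains. All reads gave 16.8, 17.7 and 17.9 RPM in ET strain libraries with IAA, against 31.4, 37.7 and 36.8 with DMSO. Control strain libraries gave 12.8, 16.2 and 15.9 with IAA, against 34.2, 31.4 and 28.8 with DMSO. The groups were apart in both strains. IAA libraries likewise lay wholly below DMSO libraries for 70.7% of the 3677 genes in the ET strain and 72.8% in the control strain. Among 5240 genes with at least 10 reads in every library the log2 change was −1.02 ± 0.12 in the ET strain and −1.08 ± 0.13 in the control strain (adjusted p = 5.5e-08 and 3.2e-08), where 75.1% and 76.2% of genes were called lower. TPS3 thus lay 0.06 below the median of those genes in the ET strain and 0.09 above it in the control strain. Per S. pombe read it was −1.26 in both strains, and with median-of-ratios factors −0.09 and 0.07, neither called. Its T>C reads were 5, 0 and 3 in ET strain libraries with IAA, against 11, 16 and 24 with DMSO, and 2, 0 and 7 in control strain libraries with IAA, against 8, 11 and 13 with DMSO. In the fit of 6214 genes without a filter, TPS3 new RNA fell by 2.52 ± 0.59 in the ET strain (adjusted p = 6.3e-05, 68.4% of genes lower) and by 1.53 ± 0.62 in the control strain (adjusted p = 0.022, 69.5% lower). Its new RNA thus lay 0.95 below the median of those genes in the ET strain and 0.34 above it in the control strain.

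TPS1, which encodes trehalose 6-phosphate synthase, had all-read values of 109, 83.9 and 111 RPM in ET strain libraries with IAA, against 74.7, 88.1 and 90.5 with DMSO. Control strain values were 147, 151 and 128 with IAA, against 90.2, 109 and 106 with DMSO. The groups overlapped in the ET strain, through ET IAA replicate B, and were apart in the control strain. TPS1 rose by a log2 of 0.26 ± 0.11 in the ET strain (adjusted p = 0.041) and 0.48 ± 0.11 in the control strain (adjusted p = 0.00063). In T>C reads it stood at 0.56 ± 0.37 (adjusted p = 0.15) in the ET strain and 0.65 ± 0.37 (adjusted p = 0.095) in the control strain.

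TPS2, the trehalose 6-phosphate phosphatase gene, had 109, 101 and 112 RPM in ET strain libraries with IAA, against 72.1, 96.1 and 97.1 with DMSO. For the control strain it had 122, 148 and 121 with IAA, against 94.6, 91.7 and 91.0 with DMSO. IAA libraries lay above DMSO libraries in both strains, at log2 changes of 0.28 ± 0.11 (adjusted p = 0.025) and 0.49 ± 0.11 (adjusted p = 0.00031). New RNA of TPS2 did not rise with it: its T>C log2 change was −0.55 ± 0.30 in the ET strain (adjusted p = 0.081) and 0.04 ± 0.31 in the control strain (adjusted p = 0.91).

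**Figure D3:**
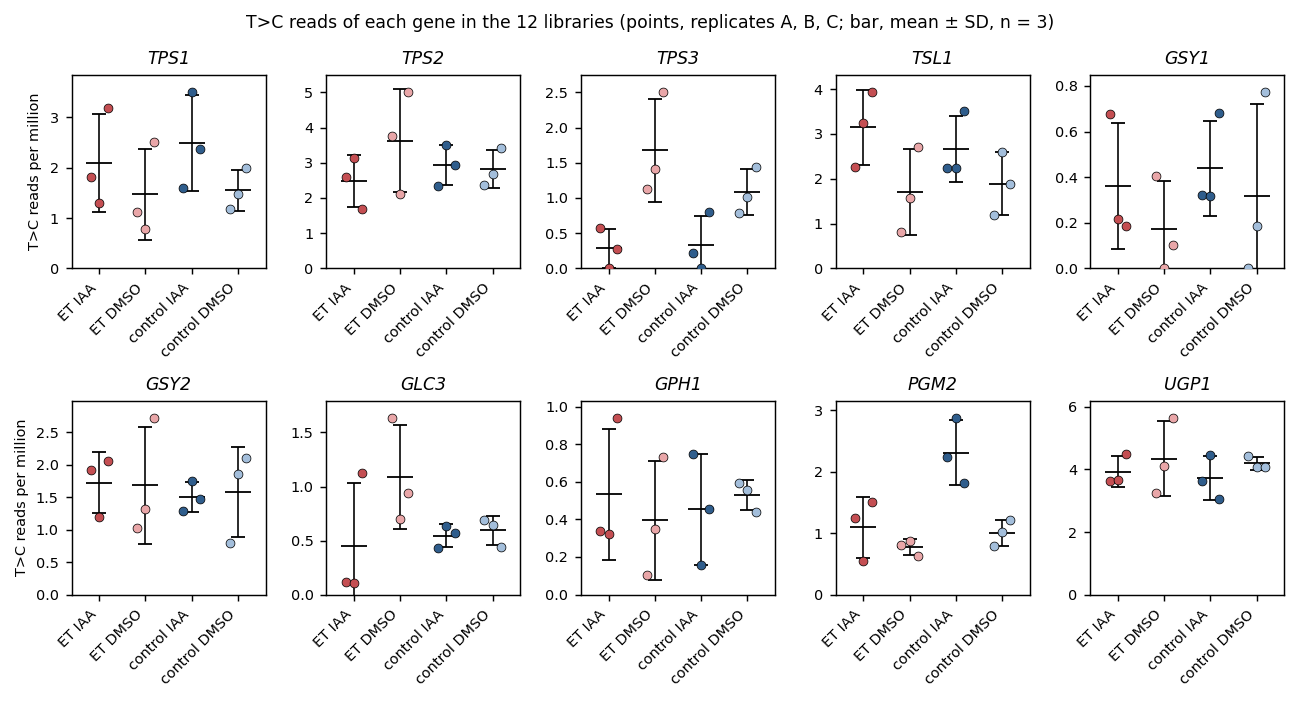
T>C reads of each gene, in RPM, in the 12 libraries, with 1 panel per gene; points are replicates A, B and C and bars are the mean ± SD of 3. PGM2 in the control strain is the single tested gene whose 3 IAA libraries all lie above the 3 DMSO libraries, and TPS3 in the ET strain lies wholly below.

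Of the glycogen synthases, GSY2, known as the main isoform, was higher after IAA in all reads, as were TPS1, TPS2 and TSL1. It gave 79.9, 74.2 and 76.9 RPM in ET strain libraries with IAA, against 47.9, 69.0 and 69.2 with DMSO, and 87.1, 91.2 and 77.9 in control strain libraries with IAA, against 61.7, 62.3 and 60.0 with DMSO. No IAA library overlapped a DMSO library of the same strain. The log2 change was 0.31 ± 0.11 in the ET strain (adjusted p = 0.018) and 0.48 ± 0.12 in the control strain (adjusted p = 0.00077), while its T>C reads stood at 0.06 ± 0.37 and −0.09 ± 0.40, neither called.

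GSY1, the second glycogen synthase, had few T>C reads and was not called. All reads gave 32.1, 32.1 and 24.1 RPM in ET strain libraries with IAA, against 21.7, 30.4 and 19.1 with DMSO, and 28.9, 36.0 and 28.6 in control strain libraries with IAA, against 30.8, 22.7 and 24.5 with DMSO. The groups overlapped in both strains, and the log2 change was 0.30 ± 0.16 (adjusted p = 0.087) and 0.25 ± 0.16 (adjusted p = 0.15). It had 10 T>C reads over the ET strain's IAA libraries and 5 over its DMSO libraries, and in the fit without a filter its new RNA stood at 1.04 ± 0.94 (adjusted p = 0.32) in the ET strain and 0.53 ± 0.84 (adjusted p = 0.57) in the control strain.

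GLC3, the branching enzyme gene, was the exception among the tested genes in all reads. It gave 14.4, 17.7 and 18.0 RPM in ET strain libraries with IAA, against 15.8, 18.2 and 16.8 with DMSO, and 17.4, 22.1 and 17.3 in control strain libraries with IAA, against 16.4, 17.9 and 15.6 with DMSO. The groups overlapped in both strains, at log2 changes of −0.02 ± 0.14 (adjusted p = 0.91) and 0.17 ± 0.14 (adjusted p = 0.25). Its T>C reads were 1, 1 and 12 in ET strain libraries with IAA, against 16, 8 and 9 with DMSO. ET IAA replicate C thus held 12 of the 14 T>C reads after IAA and lay within the DMSO range. The T>C log2 change of −1.15 ± 0.52 (adjusted p = 0.033) in the ET strain was not called when ET IAA replicate A, ET IAA replicate B or ET DMSO replicate A was left out, or with DESeq2. In the control strain GLC3 had 4, 4 and 5 T>C reads with IAA, against 7, 7 and 4 with DMSO (log2 −0.16 ± 0.58, adjusted p = 0.80). A noncoding interval on the opposite strand covers 310 bases of GLC3.

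GPH1, glycogen phosphorylase and the breakdown enzyme of the set, spread widely among replicates of the ET strain. All reads gave 97.0, 91.8 and 124 RPM in ET strain libraries with IAA, against 46.5, 73.9 and 106 with DMSO, and 84.3, 99.5 and 85.3 in control strain libraries with IAA, against 64.1, 65.4 and 60.0 with DMSO. The groups overlapped in the ET strain and were apart in the control strain. In the ET strain IAA was higher within each of the 3 letters, but the labels do not say what a letter shares. GPH1 rose by 0.47 ± 0.18 on the log2 scale in the ET strain (adjusted p = 0.025) and by 0.50 ± 0.19 in the control strain (adjusted p = 0.018). Its T>C reads numbered 1 to 10 per library, and their log2 changes of 0.48 ± 0.60 and −0.13 ± 0.60 were not called.

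PGM2, the major phosphoglucomutase, had the second largest rise of the 10 genes in all reads, after TSL1. It gave 112, 86.3 and 93.8 RPM in ET strain libraries with IAA, against 47.5, 71.2 and 77.9 with DMSO. Control strain libraries gave 121, 128 and 96.6 with IAA, against 73.0, 68.3 and 68.2 with DMSO. IAA libraries lay above DMSO libraries in both strains. The log2 change was 0.57 ± 0.14 in the ET strain (adjusted p = 0.0012) and 0.72 ± 0.14 in the control strain (adjusted p = 0.00011).

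New RNA of PGM2 was higher after IAA in the control strain. Its T>C reads numbered 11, 5 and 16 in ET strain libraries with IAA, against 8, 10 and 6 with DMSO, and 21, 18 and 16 in control strain libraries with IAA, against 8, 11 and 11 with DMSO. In the control strain the 3 IAA libraries, at 2.31 ± 0.531 T>C RPM, lay above the 3 DMSO libraries, at 1.01 ± 0.213 (SD, n = 3 each). Such a separation was seen for 1.12% of the 3677 genes in the control strain and for none of the 8 genes in the ET strain, where the background was 0.789%. The log2 change was 1.17 ± 0.41 (adjusted p = 0.0059) in the control strain, called with each of the 12 libraries left out in turn, and 0.50 ± 0.46 (adjusted p = 0.31) in the ET strain. The difference between the strains' changes was −0.67 ± 0.62 (adjusted p = 0.77). PGM1, the paralogue of PGM2, fell in all reads by 0.99 in the ET strain and by 1.00 in the control strain, and stood at −0.07 and 0.15, not called, with median-of-ratios factors.

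UGP1, which encodes UDP-glucose pyrophosphorylase, had 275, 278 and 318 RPM in ET strain libraries with IAA, against 188, 248 and 276 with DMSO, and 286, 337 and 289 in control strain libraries with IAA, against 224, 247 and 237 with DMSO. The groups were apart in the control strain and overlapped in the ET strain by 1 library on each side. Within each of the 3 letters of the ET strain IAA was higher, with the same limit as for GPH1. The log2 change was 0.29 ± 0.11 (adjusted p = 0.023) in the ET strain and 0.36 ± 0.11 (adjusted p = 0.0055) in the control strain. Its new RNA stood at −0.13 ± 0.26 and −0.20 ± 0.27, neither called. The UGP1 interval shares 81 bases with AIM26 on the same strand.

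Counted over the 8 tested genes, IAA and DMSO libraries did not overlap, with IAA higher, for 4 genes in the ET strain (background 9.27% of 3677 genes) and for 7 in the control strain (background 9.68%). Per S. pombe read they overlapped for all 8 in the ET strain. On that scale IAA libraries lay wholly above in the control strain for 5 genes (TPS2, TSL1, GSY2, GPH1 and PGM2), and no share over all genes was counted. In the ET strain the calls in all reads rested in part on ET DMSO replicate A, which had the lowest level of 7 of the 10 genes among the 12 libraries. Without that library TSL1 and PGM2 alone were called. Without ET IAA replicate C 3 genes were called, without ET IAA replicate A 4, and without ET DMSO replicate B 5.

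**Figure D4:**
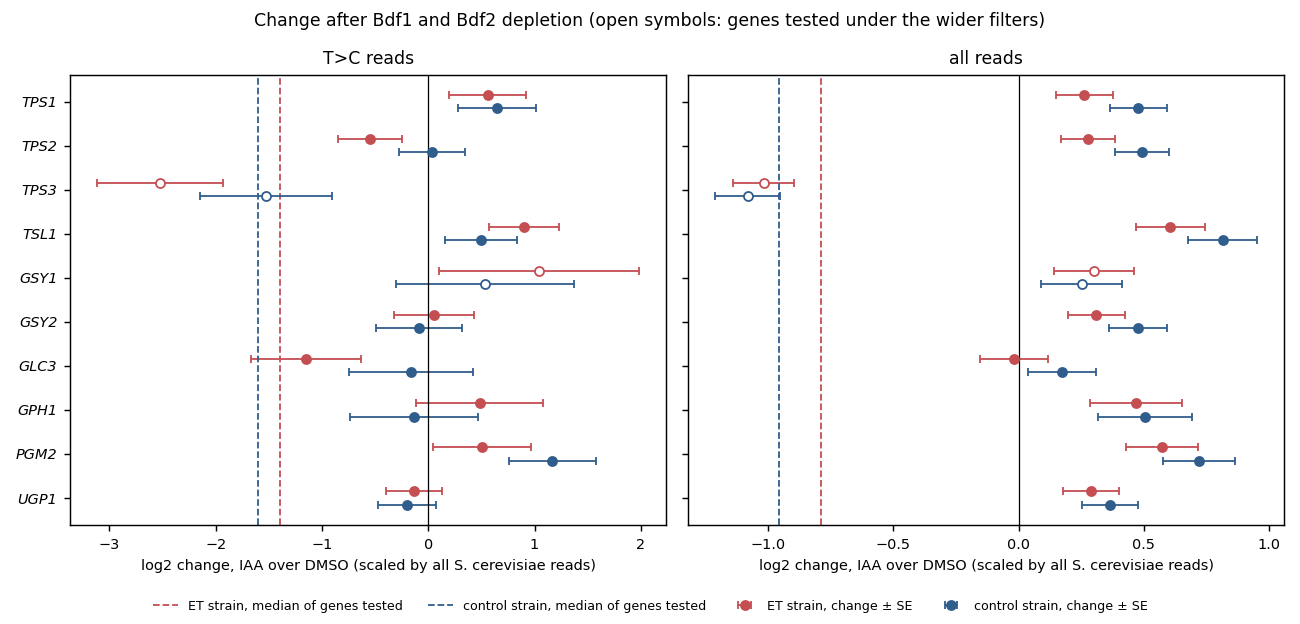
Log2 change of each gene with IAA over DMSO in each strain, in T>C reads and in all reads, with the SE as error bar and the median of the genes tested as a dashed line; TPS3 and GSY1 come from the fits with wider gene sets. In all reads every gene but TPS3 lies near or above 0 and far above the median of all genes in both strains.

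The labelled share of a gene, its T>C reads over its reads, sets new RNA against total RNA. TPS2 was the only one of the 8 genes called: 2.27% of its reads were T>C reads over the ET strain's IAA libraries, against 3.99% over its DMSO libraries, a log2 change of −0.83 ± 0.28 (adjusted p = 0.012). TPS2 was not called without ET DMSO replicate A, without ET DMSO replicate C or without ET IAA replicate C. Among all genes 0.109% were called higher and 38.3% lower in the ET strain. In the control strain none of the 8 was called, 1 of them at an unadjusted p under 0.05, against 0.136% of genes higher and 38.5% lower. In a wider set of 5971 genes, where 22.9% were called lower, TPS3 was called too in the ET strain (−1.52 ± 0.58, adjusted p = 0.042), at 1.59% with IAA and 4.67% with DMSO. The 8 genes had median changes of −0.15 in the ET strain and −0.38 in the control strain, against −0.59 and −0.66 over all genes. In the ET strain GLC3 (−1.15 ± 0.49) and TPS2 lay below the median of all genes, by 0.55 and 0.23, and the other tested genes above it. All 8 lay above it in the control strain.

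The comparison of the strains asks what the overexpressed ET domain added. With IAA, the ET strain had lower all-read levels of TPS1 (log2 −0.48 ± 0.11, adjusted p = 0.0047) and TPS2 (−0.28 ± 0.11, adjusted p = 0.049) than the control strain, and no gene of the 8 was called higher. Of all genes 5.09% were called lower and 32.4% higher, with a median of 0.22, and all 8 genes lay at or below that median. ET libraries lay wholly below control libraries for TPS1, TPS2 and TSL1 (background 7.51%). TPS3 lay the other way, with all ET libraries above the control libraries (17.5 ± 0.615 RPM in the ET strain and 15.0 ± 1.88 in the control strain, SD, n = 3 each; background 38.2%), at a log2 difference of 0.23 ± 0.14 in the wider set (adjusted p = 0.18). TPS1 was called with each library left out in turn, whereas TPS2 was lost in 10 of these 12 fits. Per S. pombe read none of the 8 was called (TPS1 at −0.44, adjusted p = 0.052), and with median-of-ratios factors 7 were called lower, all but GPH1 (background 18.2%). Already with DMSO, scaled by all S. cerevisiae reads, TPS1 stood at −0.27 ± 0.11 in the ET strain against the control strain (edgeR adjusted p = 0.32). The change of TPS1 with IAA differed between the strains by −0.22 ± 0.16 (edgeR adjusted p = 0.49).

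In T>C reads no gene of the 8 was called between the strains with IAA by edgeR, and 1 had an unadjusted p under 0.05, against 13.1% of genes called higher and 0.299% lower. That gene was PGM2, at 1.09 ± 0.497 T>C RPM in the ET strain and 2.31 ± 0.531 in the control strain (SD, n = 3 each), a log2 difference of −1.03 ± 0.40 (adjusted p = 0.070). Its libraries did not overlap (background 1.69%). Changes in the labelled share between the strains with IAA were called for none of the 8 genes, 1 at an unadjusted p under 0.05, and 4.32% of all genes were higher. With DMSO none of the 8 was called in T>C reads (0.163% of genes higher, 0.0272% lower; 0 of the 8 at an unadjusted p under 0.05) or in all reads (0.163% higher, 0.761% lower; 1 of the 8, TPS1).

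The change with IAA was not called different between the strains for any of the 8 genes. In all reads the difference, ET strain minus control strain, was negative for all 8, between −0.22 and −0.04, where the median of all genes was 0.16. In T>C reads it ran from −0.99 for GLC3 to 0.62 for GPH1, with SEs of 0.79 and 0.85. None of the 8 had an unadjusted p under 0.05 in either measure, and over all genes edgeR called 1 gene for the difference in T>C reads and none in all reads (641 genes at an unadjusted p under 0.05, and 9 called with DESeq2).

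**Figure D5:**
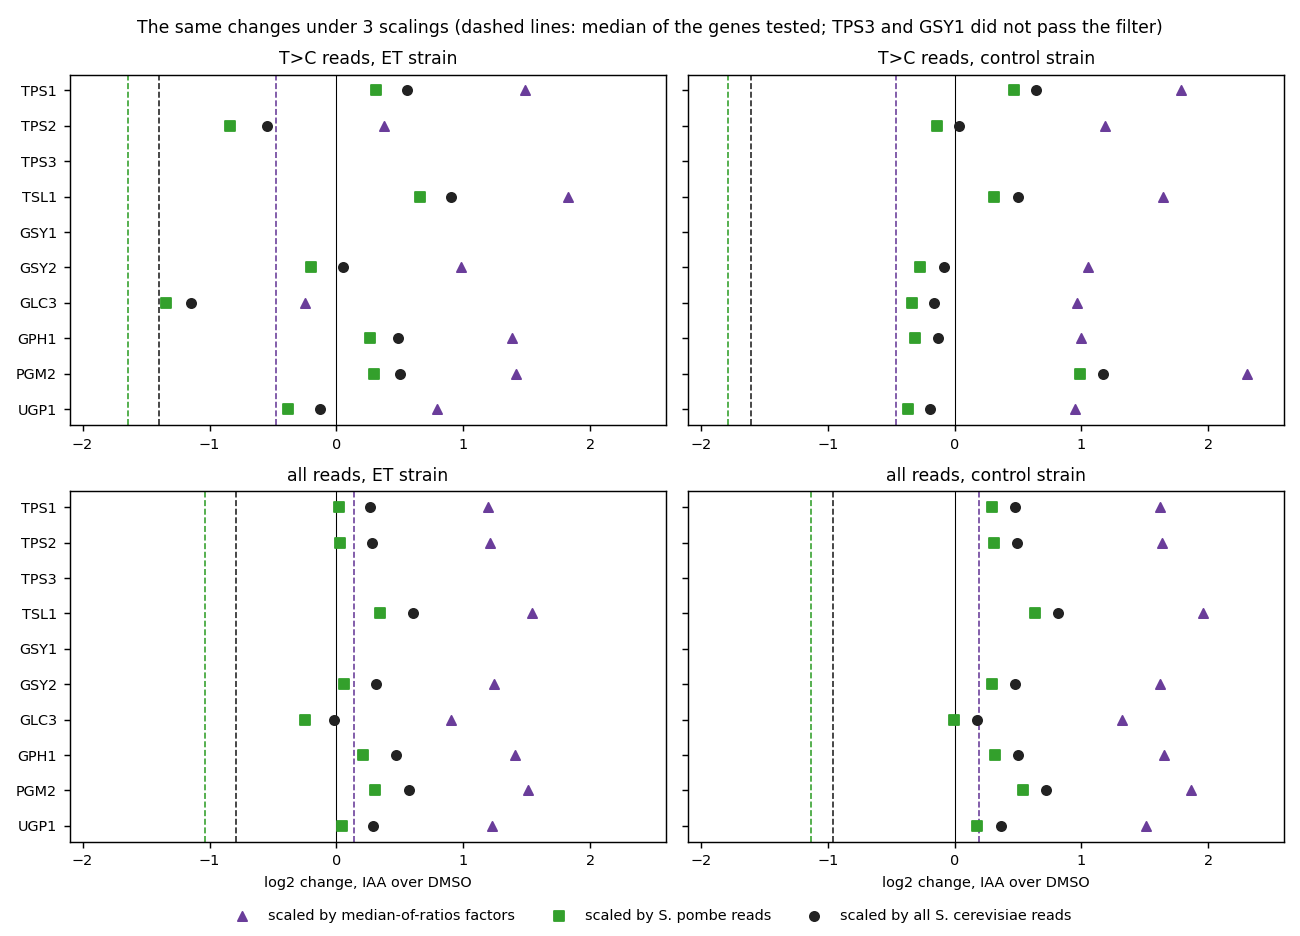
Log2 change with IAA over DMSO of the 8 tested genes in T>C reads and all reads of each strain under 3 ways to scale the libraries, with the median of the 3677 genes as a dashed line in the colour of each scaling. The scalings shift the genes and the median together, so that the rank of the genes and their distance from the median stay nearly the same while their position relative to 0 does not.

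Other genes of the pathways were called in both directions. Of 23 other genes of trehalose, glycogen and UDP-glucose metabolism, all measured in the wider set of all reads, 4 were called higher and 12 lower after IAA in the ET strain and 5 higher and 14 lower in the control strain. Of all 5240 genes of that set, 6.98% were called higher and 75.1% lower in the ET strain and 6.95% higher and 76.2% lower in the control strain. Per S. pombe read the counts were 0 higher and 14 lower in the ET strain (background 0.84% and 79.4%) and 2 and 14 in the control strain (1.72% and 78%). With median-of-ratios factors they were 12 and 3 (36.1% and 31.9%), and 10 and 3 (39.1% and 34.7%). GLK1 and HXK1, which encode hexose-phosphorylating kinases, rose in T>C reads by 0.77 and 0.81 in the ET strain and by 1.29 and 0.75 in the control strain, calls of which GLK1 in the control strain alone held per S. pombe read. NTH1, the neutral trehalase gene, rose in all reads by 0.29 ± 0.10 (adjusted p = 0.010) and 0.52 ± 0.10 (adjusted p = 6.2e-05), not called per S. pombe read, and its T>C changes of −0.22 and −0.56 were not called. ATH1, the acid trehalase gene, fell in all reads by 0.72 and 1.20, and stood at 0.21 and −0.05, not called, with median-of-ratios factors. The debranching enzyme gene GDB1 stood at −0.13 and −0.15, not called. Of the glycogenin genes, which prime glycogen, GLG1 stood at −0.27 and 0.19, not called, and GLG2 at −0.33, not called, and −0.66 (adjusted p = 0.0020), while with median-of-ratios factors GDB1, GLG1 and GLG2 were called higher in both strains. PCL8, PCL6 and PCL7 encode cyclins of the Pho85 kinase, which phosphorylates glycogen synthase. PCL8 and PCL6 fell in T>C reads by 2.19 and 2.01 in the ET strain and by 3.18 and 2.06 in the control strain, and PCL7 fell in the control strain, by 2.10, in a measure where the median gene fell by 1.40 and by 1.61. With median-of-ratios factors PCL8 was still called lower in both strains (background 30.2% in the ET strain and 28.7% in the control strain), and PCL6 and PCL7 were not called.

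Most regulators of these genes were called lower, as were most genes. Of 14 regulators in the wider set of all reads, none was called higher and 11 were called lower in each strain, against the 75.1% and 76.2% of all genes called lower. With median-of-ratios factors 5 were called higher and 3 lower in the ET strain (background 36.1% and 31.9%). In the control strain 7 were called higher and 3 lower (background 39.1% and 34.7%). MSN2, the STRE-binding activator, fell in all reads by 0.42 in the ET strain and by 0.55 in the control strain, but stood at 0.51 and 0.60 with median-of-ratios factors. MSN4 stood at −0.21 and −0.26, not called, and at 0.71 and 0.89 with those factors. In T>C reads MSN4 fell by 0.99 in the ET strain (adjusted p = 0.020). BCY1, the inhibitory subunit of protein kinase A, fell in T>C reads by 1.35 and 2.70. SNF1, the kinase needed for glycogen storage, fell by 1.85 and 2.55, and PSK1, a PAS kinase that acts on Ugp1, fell by 2.01 and 2.27. With median-of-ratios factors, T>C reads of MSN4, BCY1, SNF1 and PSK1 were not called in the ET strain, and those of BCY1 and SNF1 alone were called lower in the control strain. In all reads with median-of-ratios factors BCY1 stood at 0.14 and 0.43, while SNF1 was still called lower in both strains.

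Across the 12 libraries, the mean T>C profile of the 10 genes was most like that of CWP1 (Pearson r = 0.864), NCE103 (0.840), TMA10 (0.834), CIT1 (0.831) and SPO24 (0.783), among 2010 genes averaging 20 or more T>C reads. The points are libraries of 4 groups, so the treatment and the library's depth are part of each value, and r is given as a description.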

How the data were processed

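Each of the 12 libraries was deposited as counts of all reads, of T>C reads and of multimapping reads per gene interval, with no normalization and no pooling. Per the methods, the authors trimmed the reads (fastp 0.23.2, bbduk) and used SLAM-DUNK (slamdunk 0.4.3, per the file headers) to align, filter and count them. Libraries were made from 3′ ends of mRNA, so values were compared between libraries of a gene and not between genes. The intervals run from the ORF start to 250 bp past its 3′ end, and 6013 of 6014 protein-coding intervals share their 5′ coordinate with the R64 reference.

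T>C reads and all reads were fitted with edgeR 4.0.16 (quasi-likelihood test, 4 group means, all 12 libraries) in R 4.3.3, with the sum of all S. cerevisiae reads as library size. The labelled share was fitted as T>C reads with the gene's own reads as offset. Genes with a T>C read in each of the 12 libraries were tested (3677). Two-sided p-values were adjusted over all of them (Benjamini-Hochberg, threshold 0.05), and the SE is that of the log2 change. The fits were also run on simulated data in which few genes changed, up and down alike. That does not test the scaling where most genes fall. Alternatives were S. pombe reads or median-of-ratios factors as scaling, other filters, DESeq2 1.42.0, a replicate block and each library left out in turn. Wider filters, the library sum without the 10 largest intervals and DESeq2 on all reads were added after seeing the data.

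The members, the lists of other genes and the tests were chosen with earlier results of these data known. All 10 genes are named, as are NTH1, ATH1, GDB1, GLG1, GLG2, MSN2, MSN4 and, of the other listed genes, the 6 past the threshold in T>C reads with the largest change. GLK1, HXK1 and PGM1 were named after their values were seen. The lists hold 23 other pathway genes and 14 regulators, and motif matches were counted in the R64 RefSeq sequence. The labels call the replicates A, B and C and do not say what a letter shares, so p-values measure the spread between these libraries. In all reads of the ET strain, IAA and DMSO libraries of the same letter deviated together from their group means (r = 0.31, 0.22 and 0.28), which they did not in the control strain (−0.06, −0.22 and 0.07) or in T>C reads (−0.01 to 0.05). Libraries of different letters could correlate as much in all reads (r = 0.26 for control IAA replicate B with control DMSO replicate A). An r of this size thus does not show what a letter shares.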

Additional observations from a re-analysis of the deposited data

How the results depend on the processing

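Of 534 log2 changes of the 10 genes under alternatives other than leaving out a library, 469 kept their side of the threshold (18 of them uncalled values of the other sign), 36 lost and 23 gained a call in the same direction, and 6 changed sign with a call on at least 1 side. Those 6 did so with median-of-ratios factors, which raised the median change of all genes after IAA by 0.92 to 1.15 log2 units, where S. pombe reads moved it by −0.25 to −0.18: T>C reads of UGP1 (0.80 in the ET strain, 0.95 in the control strain) and GSY2 (1.05 in the control strain), all reads of GLC3 in the ET strain (0.91 with either filter) and all reads of TPS3 in the control strain (0.0695, wider filter). Of 864 changes with a library left out, 823 kept their side of the threshold (40 of them uncalled values of the other sign), and 34 lost and 7 gained a call in the same direction.

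Counts of the genes called moved as follows. T>C reads higher after IAA in the ET strain: 0 per S. pombe read and 5 with median-of-ratios factors, against 1. T>C reads lower there: 2 per S. pombe read, and 0 with median-of-ratios factors or DESeq2, against 1. In the control strain 6 were higher with median-of-ratios factors, against 1, and 1 was lower (TPS3) with edgeR's own filter or none, against 0. All reads higher: 0 in the ET strain and 2 in the control strain per S. pombe read with either filter, against 7 in each. All reads lower: 1 in each strain (TPS3) with the wider filter, scaled to either species, against 0. ET against control with IAA, all reads lower: 0 per S. pombe read and 7 with median-of-ratios factors with either filter, against 2. Labelled share lower in the ET strain: 2 with edgeR's own filter or the wider one, against 1.

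Leaving out 1 library gave these ranges: T>C reads higher 0 to 2 in the ET strain and 1 to 2 in the control strain, and lower 0 to 2 in the ET strain; all reads higher 2 to 7 in the ET strain and 6 to 7 in the control strain; ET against control with IAA, all reads lower, 1 to 3; labelled share lower in the ET strain 0 to 2. With the replicate letter as a block, 1 gene (TPS1) was lower in all reads of ET against control with IAA, and 2 were lower in labelled share after IAA in the ET strain, also with the block within strains. The blocks changed no other count of the genes called.

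Over all 3677 genes, the split of higher and lower calls moved with scaling. In all reads it was 326 and 2608 in the ET strain and 330 and 2659 in the control strain, 37 and 2789, and 81 and 2729, per S. pombe read, and 1649 and 933, and 1758 and 1042, with median-of-ratios factors. In T>C reads it was 29 and 2927, and 35 and 2931, then 8 and 3081, and 14 and 3004, per S. pombe read, and 444 and 1109, and 525 and 1054, with median-of-ratios factors. Low T>C counts, mostly below about 20 per library, limit the tests of GLC3, GPH1, GSY1, PGM2 and TPS3 in new RNA. The same limit touches GSY2 (8 to 26 per library), TPS1 (9 to 34) and TSL1 (8 to 42).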
